A study of Mus musculus with 2 samples.

Results

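The miR-26 family of the mouse consists of 3 hairpin genes, Mir26a-1, Mir26a-2 and Mir26b. They are named members of the family, and none was picked by its read count. The 3 genes were examined among 1222 miRNA hairpins in small RNA libraries of J1 cells, an established mouse embryonic stem cell line derived from strain 129S4/SvJae. One culture condition was SC1 at 1 µM for 6 h, and the other was an equal volume of DMSO for 6 h. SC1, or pluripotin, is a synthetic compound that blocks RasGAP and the kinase ERK1 and is used to sustain self-renewal. All cells grew in serum replacement medium with 1000 U/mL LIF, the cytokine that keeps mouse embryonic stem cells undifferentiated, so both conditions share LIF. The stated aim was to find miRNAs that SC1 regulates. Each condition had 1 library, so no value below has a replicate error and no test between conditions was possible.

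miRNAs are cut from hairpins by Drosha and Dicer, and 1 strand of the resulting duplex, usually much more abundant than the other, guides Argonaute to target RNAs through its seed, bases 2 to 8. The miR-26 hairpins lie in introns of genes for small phosphatases of the RNA polymerase II C-terminal domain, which are known to help silence neuronal genes outside neurons. In zebrafish, miR-26b is known to repress its own host gene during neurogenesis, and in mammalian cells miR-26a is known to target Ezh2, the methyltransferase of Polycomb complex PRC2. The 3′ end of a miRNA can receive extra adenosines or uridines after cutting, and miR-26a is a known substrate of the uridylating enzyme TUT4 in human cells.

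The hairpins are shown first, because everything counted below was defined by them. Sequences and coordinates are those of RefSeq on GRCm38.p6, with the annotated mature arms in capitals, and all 3 hairpins were found in the table.
Mir26a-1 hairpin: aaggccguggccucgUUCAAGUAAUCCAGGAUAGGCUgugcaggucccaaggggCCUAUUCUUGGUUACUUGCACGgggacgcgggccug
Mir26a-2 hairpin: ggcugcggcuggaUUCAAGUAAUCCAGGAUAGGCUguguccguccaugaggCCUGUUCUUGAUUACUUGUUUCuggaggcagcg
Mir26b hairpin: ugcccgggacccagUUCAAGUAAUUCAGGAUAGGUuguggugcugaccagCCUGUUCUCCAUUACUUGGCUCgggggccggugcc
The hairpins differ from each other mainly outside the 5p arm. Mir26a-1 and Mir26a-2 had the same base in 66 of 91 alignment columns (72.5%), Mir26a-1 and Mir26b in 64 of 93 (68.8%), and Mir26a-2 and Mir26b in 62 of 92 (67.4%).

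Each hairpin lies on the plus strand within a gene of the Ctdsp family in GENCODE M21. Mir26a-1 is at chr9:119031796-119031885, in intron 5 of the 7 introns of the longest Ctdspl transcript. Mir26a-2 is at chr10:126995530-126995613, in intron 5 of the 7 introns of the longest Ctdsp2 transcript. The last base of the Mir26a-2 hairpin is also the annotated first base of exon 1 of 2 shorter Ctdsp2 transcripts. Mir26b is at chr1:74394310-74394394, in intron 4 of the 6 introns of the longest Ctdsp1 transcript, and that intron is 564 nt long, against 1946 nt for the Ctdsp2 intron and 3283 nt for the Ctdspl intron. No other annotated gene overlapped any of the 3 hairpins.

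The mature arms are given next with the seed in capitals, because the seed is what makes these genes a family.
miR-26a-5p: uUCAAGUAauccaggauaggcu
miR-26b-5p: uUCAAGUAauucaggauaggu
miR-26a-1-3p: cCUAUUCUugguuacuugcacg
miR-26a-2-3p: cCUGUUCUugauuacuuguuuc
miR-26b-3p: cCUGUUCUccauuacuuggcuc
Both miR-26a genes give the same 5p product. Among 1581 mature names in the table, miR-26a-5p and miR-26b-5p were the only 2 with their seed. The opposite arms do not share 1 seed. miR-26a-2-3p and miR-26b-3p carry the same one, which 4 mature names of the table have, while miR-26a-1-3p has a seed of its own.

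The tag lists covered different RNA lengths, which sets what can be said of each condition. The SC1 list held 1275599 reads of 3 to 17 nt, and the DMSO list 18870345 reads of 18 to 44 nt. They had no length in common, and whether they are 2 separate libraries cut to different lengths or 2 length classes of 1 library cannot be told apart from these files. In what follows, SC1 and DMSO therefore mean the lists with these labels. Full-length miR-26 was measured in the DMSO list alone, and its level cannot be compared between SC1 and DMSO. A miRNA hairpin was matched by 2409594 DMSO reads of 18 to 26 nt, either exactly or after removal of 1 to 3 untemplated 3′ A or T, and levels are given as RPM, reads in each 1000000 of these. The stem cell markers of the miR-290 cluster were abundant, with 6 of 6 hairpins detected and 27.3% of the hairpin reads. The miR-302 and miR-367 list of primed cells took 0.0127% (5 of 5 hairpins detected), the fibroblast list 0.180% (4 of 5, Mir214 at 0), the muscle list 0.127% (5 of 5), the blood list 0.0148% (3 of 4, Mir223 at 0) and the liver miRNA Mir122 0.00249%. Their part in the miR-26 values was not tested.

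The family was present at a moderate level in DMSO-treated cells, and both 5p products contributed. In all, 9388 reads in 71 distinct tags matched the 3 hairpins, which is 3896 RPM (exact 95% binomial interval 3818 to 3976) or 0.390% of the hairpin reads. miR-26a-5p, whose sequence Mir26a-1 and Mir26a-2 share, had 5165 reads, or 2144 RPM (interval 2086 to 2203). miR-26b-5p, the product of Mir26b, had 4219 reads, or 1751 RPM (interval 1699 to 1805). The family was thus divided into 55.0% miR-26a-5p and 44.9% miR-26b-5p, so that miR-26a-5p had 1.22 times the reads of miR-26b-5p (interval 1.18 to 1.28). These intervals cover counting error only, since reads that carry no molecular identifiers cannot be counted as independent molecules.

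Among 822 RefSeq arms with reads, miR-26a-5p stood 53rd and miR-26b-5p 62nd. Arms were named from RefSeq alone. Reads found only on the further hairpins from GENCODE count in the RPM scale. They have no place in these ranks or in the sets of arms below. The arms just above miR-26a-5p were miR-495-3p at 2279 RPM, miR-92a-2-5p at 2273 RPM and miR-130b-3p at 2222 RPM. Just below it came miR-379-5p at 2079 RPM, miR-485-3p at 2063 RPM and miR-363-3p at 2009 RPM. The interval of miR-26a-5p overlapped those of its nearest neighbour on each side, and also that of miR-485-3p, but not those of miR-495-3p, miR-92a-2-5p and miR-363-3p. miR-26b-5p stood between miR-30a-5p at 1827 RPM, miR-409-3p at 1774 RPM and miR-183-5p at 1764 RPM above it and miR-674-5p at 1743 RPM, miR-134-5p at 1670 RPM and miR-342-3p at 1659 RPM below it. Its interval overlapped all 6 of these. Overlap of intervals does not show that the order is within counting error, and the differences between these arms were not tested. The intervals of miR-26a-5p and miR-26b-5p did not overlap.

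The most abundant tags are shown with the bases at which the 2 products differ in capitals, because these bases decide which gene a read is given to.
miR-26a-5p main tag: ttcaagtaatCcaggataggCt
miR-26b-5p main tag: ttcaagtaatTcaggataggTt
Written from miR-26a-5p to miR-26b-5p and counted from 1 at the 5′ end, the differences are C11T and C21T. Of the reads of 22 to 26 nt that had all other bases of these tags up to base 22, 4416 carried both bases of miR-26a-5p and 3773 both bases of miR-26b-5p. Only 3 reads joined the base of one at position 11 to the base of the other at position 21. Single substitutions summed over positions 1 to 20 of the 22 nt tags had 9 reads beside 3372 unchanged reads of miR-26a-5p and 16 beside 3499 of miR-26b-5p. These sums take in position 11, with 1 read of C11T on miR-26a-5p and 2 reads of T11C on miR-26b-5p. Those reads are also counted as joined. The part of misreading in the level of either member was not tested.

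Which gene supplied miR-26a-5p could be read from few tags. Of its 5165 reads, 5162 matched Mir26a-1 and Mir26a-2 alike. The remaining 3 began 1 base before the annotated start with an A that Mir26a-2 has and Mir26a-1 lacks. No 5p read was particular to Mir26a-1. These counts do not divide miR-26a-5p between its genes, because a read from the annotated start carries no base that separates them.

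The 3p arms, the passenger strands of the duplexes, were almost undetected, and they are the only products that tell all 3 genes apart. miR-26a-1-3p had 1 read, miR-26a-2-3p had 2 reads and miR-26b-3p had 1 read, each a 22 nt tag equal to the annotated arm. Every locus thus had at least 1 star read, but none exceeded the limit of 3 counts that is compatible with a count of 0, so no order among the loci can be read. The 3p arms made up 0.0580% of the miR-26a reads (interval 0.0120 to 0.170) and 0.0237% of the miR-26b reads (interval 0.000600 to 0.132). Over the family the share was 0.0426% (interval 0.0116 to 0.109).

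A share this low was also found in other hairpins. Among 106 hairpins outside the family with 2 annotated arms and at least 1000 reads, the arm with fewer reads took a median of 0.968% (quartiles 0.0674 and 11.0). In 22 of them that share was no higher than in the miR-26 family. They included hairpins of the let-7 family such as Mirlet7g, whose other arm was at 0. A product shared by several loci counts in full at each locus in this comparison, as it does for miR-26a-5p. No read of 18 to 26 nt came from the loop or the flanks of a miR-26 hairpin, none matched the opposite strand, and none of the 2255913 DMSO reads over 26 nt matched a miR-26 hairpin.

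The 5′ end, which sets the seed, was nearly fixed in both products. It lay at the annotated start in 5135 of 5165 miR-26a-5p reads (99.4%, interval 99.2 to 99.6) and in 4205 of 4219 miR-26b-5p reads (99.7%, interval 99.4 to 99.8). A start 1 base later, which shifts the seed by 1 base, accounted for 22 miR-26a-5p reads (0.426%) and 7 miR-26b-5p reads (0.166%). Starts 2 or 3 bases later had 3 and 2 miR-26a-5p reads, and 4 and 3 miR-26b-5p reads.

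Lengths differed more between the members than starts. Tags of 22 nt held 66.0% of miR-26a-5p reads (interval 64.7 to 67.3) and 83.6% of miR-26b-5p reads (interval 82.4 to 84.7). At 24 nt the order turned, with 10.2% of miR-26a-5p reads (interval 9.35 to 11.0) and 0.332% of miR-26b-5p reads (interval 0.182 to 0.556). At 23 nt miR-26a-5p had 8.50% and miR-26b-5p 6.30%, and at 21 nt they had 7.12% and 6.64%. Shorter tags of 18 to 20 nt were also more frequent in miR-26a-5p, with 30, 146 and 209 reads at these lengths, than in miR-26b-5p, with 5, 36 and 92 reads.

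**Figure D1:**
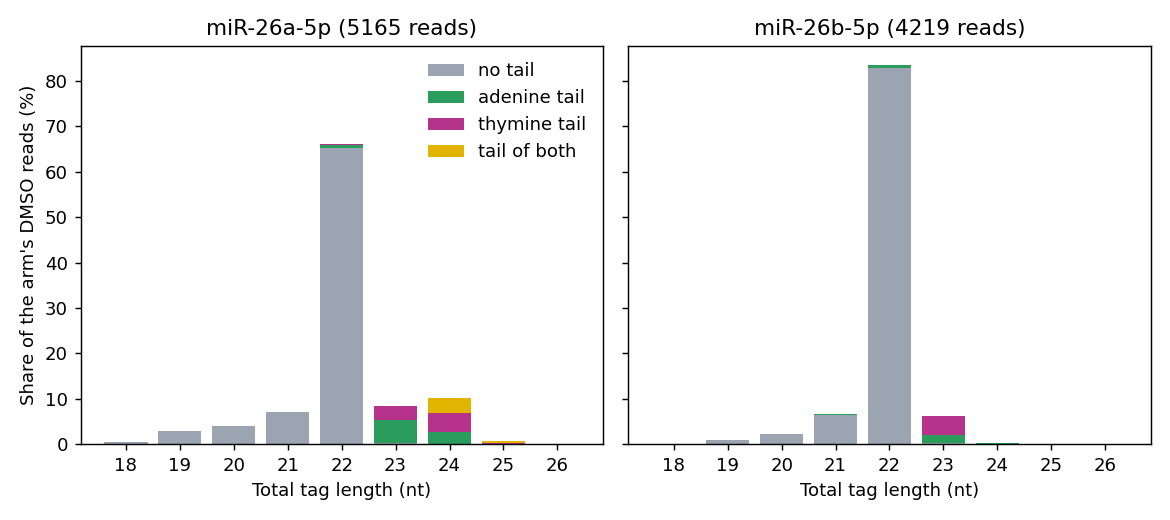
Share of the DMSO reads of miR-26a-5p (left) and miR-26b-5p (right) at each total tag length in nt, with bars divided by the untemplated 3′ tail (none, adenine, thymine or both). Both peak at 22 nt, and miR-26a-5p has a second group at 23 and 24 nt that is almost wholly tailed.

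The annotated mature form was the main tag of miR-26a-5p but not of miR-26b-5p. The main miR-26a-5p tag, with 3372 reads (65.3% of the arm), was the 22 nt RefSeq mature sequence. The main miR-26b-5p tag, with 3499 reads (82.9%), was 1 base longer than the 21 nt RefSeq sequence, which itself had 272 reads. The added base is a T that the Mir26b hairpin also has at this place, so a cut 1 base further along and a single uridine added to the annotated end give the same tag. Among 112 arms outside the family with at least 1000 reads, the main tag was the RefSeq mature sequence in 65.

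Untemplated 3′ ends were the clearest difference between the 2 products. An added A or T followed the templated part in 1029 miR-26a-5p reads, 19.9% (interval 18.8 to 21.04), and in 292 miR-26b-5p reads, 6.92% (interval 6.17 to 7.73). The comparison is most direct for reads that reach base 22, because both hairpins continue there with a G, so that neither an A nor a T can be templated. Of such reads up to 26 nt, 972 of 4416 miR-26a-5p reads carried only A or T beyond base 22 (22.01%, interval 20.8 to 23.3), against 253 of 3773 miR-26b-5p reads (6.71%, interval 5.93 to 7.55). Untemplated ends made only of C or G were counted as a measure of other mismatched ends. An added G counts as templated there, so only ends that begin with C can be seen and this measure is a lower limit. Such ends had 8 reads in miR-26a-5p (0.181%) and 0 in miR-26b-5p, which allows up to 3 reads. All untemplated ends not made of A or T alone, these included, had 48 reads in miR-26a-5p (1.09%) and 0 in miR-26b-5p.

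The tags that carry this difference are shown with the added bases in capitals.
miR-26a-5p with A, 259 reads: ttcaagtaatccaggataggctA
miR-26a-5p with TT, 207 reads: ttcaagtaatccaggataggctTT
miR-26a-5p with AT, 172 reads: ttcaagtaatccaggataggctAT
miR-26a-5p with T, 157 reads: ttcaagtaatccaggataggctT
miR-26a-5p with AA, 131 reads: ttcaagtaatccaggataggctAA
miR-26b-5p with T, 178 reads: ttcaagtaattcaggataggttT
miR-26b-5p with A, 65 reads: ttcaagtaattcaggataggttA
miR-26a-5p tails were mostly of 2 bases. Beyond base 22, 416 of its tails had 1 base, 513 had 2, 35 had 3 and 8 had more. miR-26b-5p had 243 tails of 1 base, 9 of 2 bases and 1 of 3. Tails of 2 or more bases thus made up 57.2% of the A or T tails of miR-26a-5p (interval 54.0 to 60.3) and 3.95% of those of miR-26b-5p (interval 1.91 to 7.15).

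The first added base also differed. In miR-26a-5p an A came first in 581 tails and a T in 391, whereas in miR-26b-5p an A came first in 69 and a T in 184. A single T was the only A or T tail of 1 or 2 bases with the higher share on miR-26b-5p. It was at 3.56% of the reads of miR-26a-5p that reach base 22 (interval 3.03 to 4.14) and 4.72% of those of miR-26b-5p (interval 4.06 to 5.44). These intervals overlap, which does not decide whether the shares differ, and the difference was not tested. A single A was at 5.87% (interval 5.19 to 6.60) on miR-26a-5p and 1.72% (interval 1.33 to 2.19) on miR-26b-5p. The order of mixed tails was one-sided, since AT had 172 reads on miR-26a-5p and TA had 3. This order is not particular to miR-26a-5p. By the same tail rule, AT had more reads than TA in 77 of 112 arms outside the family with at least 1000 reads. A further 21 miR-26a-5p reads ended in AG and 10 in AGA, tails that the A or T rule leaves out, and miR-26b-5p had none of these.

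**Figure D2:**
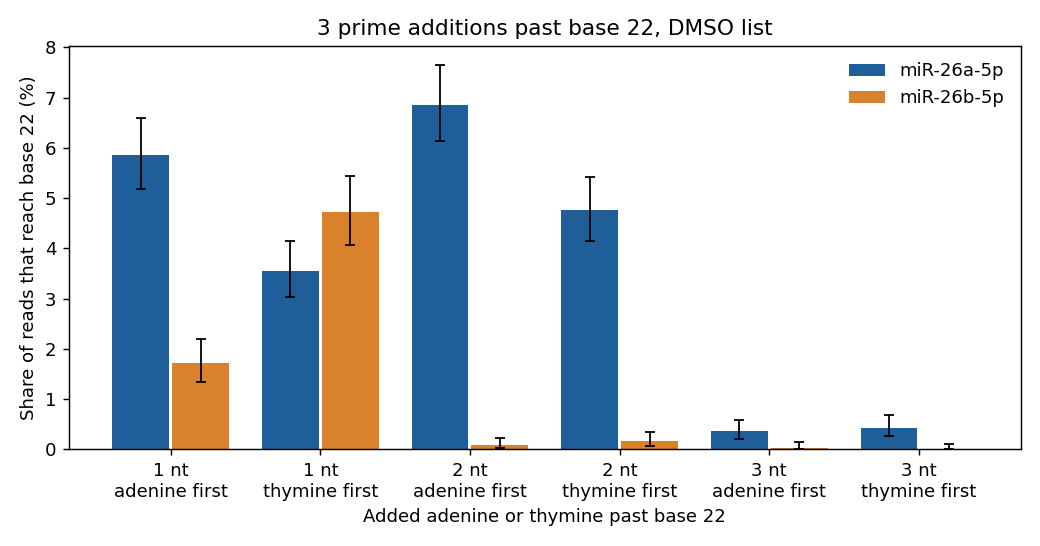
Reads with 1, 2 or 3 added adenines or thymines past base 22, by the first added base, as a share (%) of the DMSO reads that reach base 22, with exact 95% binomial intervals as error bars. A single thymine reaches 3.56% of miR-26a-5p and 4.72% of miR-26b-5p, while tails of 2 bases that begin with adenine reach 6.86% of miR-26a-5p and 0.0795% of miR-26b-5p.

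Tails were less frequent on shortened miR-26a-5p. Where its templated part ended at base 22, 973 of 4364 reads (22.3%) had a tail. Where it ended at base 20 the count was 6 of 215 (2.79%, interval 1.03 to 5.97), and at base 19 it was 2 of 146 (1.37%, interval 0.166 to 4.86). At base 21 both hairpins continue with a T, so an added T cannot be seen there and only tails that begin with A are counted. With that limit the share at base 21 was 10.6% in miR-26a-5p (41 of 387 reads, interval 7.71 to 14.1) and 10.2% in miR-26b-5p (31 of 303 reads, interval 7.06 to 14.2), and these did not differ beyond counting error.

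The ratio of the 2 members was smaller when tailed tags were left out. With exact tags alone miR-26a-5p still had more reads, 4136 against 3927 of miR-26b-5p, a ratio of 1.05 (interval 1.01 to 1.10). With the main tags alone, which leaves out untailed shorter tags as well, miR-26a-5p had 3372 reads and miR-26b-5p 3499, a ratio of 0.964 whose interval (0.919 to 1.01) includes equality. Among tailed tags the ratio was 3.52 (interval 3.09 to 4.03).

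**Figure D3:**
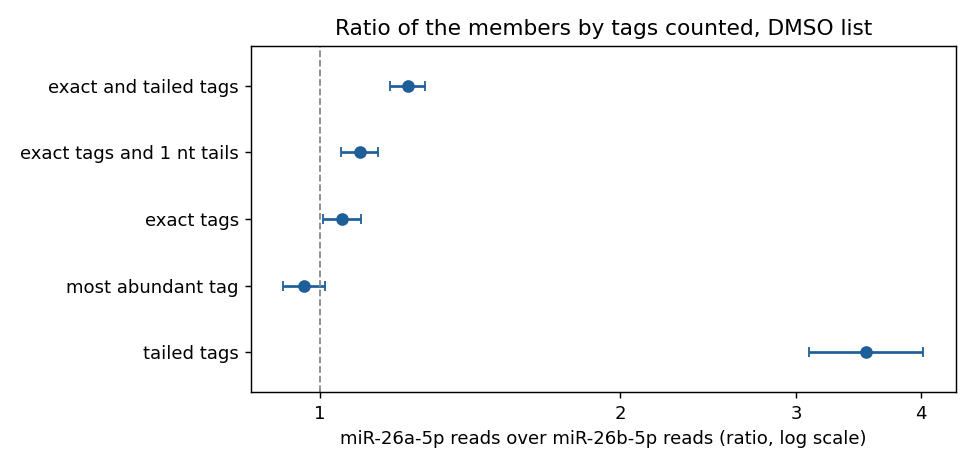
Ratio of miR-26a-5p to miR-26b-5p reads in the DMSO list (log scale), by the tags counted, with exact 95% binomial intervals; the dashed line marks equal reads. The ratio is 1.22 with exact and tailed tags, 1.05 with exact tags and 0.964 with the main tags.

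Set beside other arms, miR-26a-5p was among the more tailed and miR-26b-5p near the middle. Of the 112 arms outside the family with at least 1000 reads, 19 had a higher tail share than miR-26a-5p and 52 a higher one than miR-26b-5p, and their median was 6.51% (quartiles 3.41 and 14.7). An added base equal to the next base of the hairpin is counted as templated, so the shares of arms followed by A or T are lower limits. Tails that mixed A and T took 3.83% of miR-26a-5p reads and 0.0711% of miR-26b-5p reads, against a median of 0.365% in the other arms, of which 9 exceeded miR-26a-5p. The tail AT alone took 3.41% of miR-26a-5p reads, and 3 other arms, miR-127-3p, miR-298-5p and miR-409-3p, had more. The tail TT took 4.10%, and 6 other arms had more.

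The let-7 family, whose precursors are known uridylation targets in embryonic stem cells, had 7 5p arms with at least 1000 reads. Of these arms, 0 were above miR-26a-5p in tail share and 2 were above miR-26b-5p. The share ran from 3.46% in let-7g-5p to 15.5% in let-7b-5p. Where a let-7 hairpin continues with a T, an added T counts as templated, so the share is a lower limit. Tails of T alone took 9.49% of let-7e-5p reads, 1.88% of let-7b-5p reads and at most 0.106% in the other let-7 arms. How far this rule sets the order against miR-26a-5p was not tested. Of the miR-30 family, 4 hairpins were in RefSeq, and only these could give named arms. Of their 5p arms, 2 had at least 1000 reads, miR-30e-5p with a tail share of 12.05% and miR-30a-5p with 4.04%. miR-103-3p and miR-107-3p, which also come from introns of paralogous genes, those of the Pank family, were at 4.99% and 4.62%, both below miR-26a-5p and miR-26b-5p. These are values of 1 library and none of the differences was tested.

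**Figure D4:**
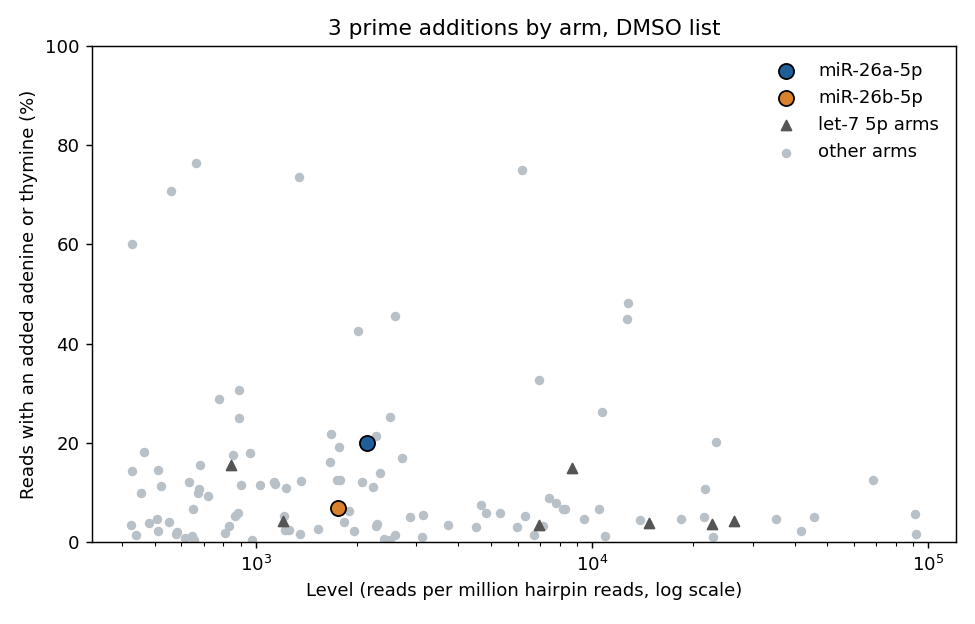
Share of reads with an added adenine or thymine (%) against level (RPM, log scale) for each of 114 RefSeq arms with at least 1000 DMSO reads. miR-26a-5p lies at 19.9% and miR-26b-5p at 6.92%, while 5 of the 7 let-7 5p arms lie below both. Shares of arms whose hairpin continues with A or T are lower limits.

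Likeness of the whole profile was measured as the total variation distance between the shares of reads over 36 classes of length and tail, where 0 is an identical profile and 1 a profile with no class in common. The arms nearest to miR-26a-5p were miR-130b-3p (0.150), let-7b-5p (0.170), miR-744-5p (0.182), miR-433-3p (0.184) and miR-106b-3p (0.189). miR-26b-5p followed at 0.190, so that 5 arms outside the family lay nearer to miR-26a-5p than its own relative did, in a set whose median distance was 0.572. The arms nearest to miR-26b-5p were miR-337-5p (0.0530), miR-340-5p (0.0685), let-7c-5p (0.0724), miR-293-3p (0.0848) and miR-130b-3p (0.0969). The classes come from the reads of 1 library, so the distances describe these reads and carry no test.

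In the SC1 list, miR-26 was at the limit of detection. The hairpins matched 2 of 1054495 reads of 15 to 17 nt, 0.000190% (interval 2.3e-05 to 0.000685), or 0.00373% of the 53655 SC1 reads on any hairpin. These 2 tags are printed because they are all the SC1 list holds of the family, with no capitals since neither has a tail.
miR-26a-5p, 1 read of 15 nt: ttcaagtaatccagg
miR-26b-5p, 1 read of 16 nt: ttcaagtaattcagga
Both began at the annotated start, none was 17 nt long, and neither matched another hairpin or a transcript of the reference. Reversed tags matched 0 times. The count was under the limit of 3 reads. The DMSO list begins at 18 nt and holds 0 reads of these lengths, so whether the count changed after SC1 cannot be told. By the same rule the SC1 list held 6.5 reads of the 7 let-7 arms after equal splitting of shared tags, 0 of the 2 miR-30 arms and 436 of miR-103-3p and miR-107-3p, beside 196621, 5922 and 132878 reads of these arms in DMSO. At the lower edge of the DMSO list, 35 of 9388 family reads were 18 nt long (0.373%, interval 0.260 to 0.518), with 0.581% of miR-26a-5p reads and 0.119% of miR-26b-5p reads. The median over the other 112 arms was 0.199%, 65 of them had a lower share than the family, and over all hairpin reads the share was 1.55%.

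Fragments of annotated host gene transcripts were counted to see whether these transcripts left a trace in the same lists. In the SC1 list, tags of 15 to 17 nt matched Ctdspl with 2 reads, Ctdsp2 with 3 and Ctdsp1 with 0, and reversed tags matched them with 2, 1 and 0 reads. In the DMSO list, tags of 18 to 31 nt matched transcripts of Ctdspl with 1 read, of Ctdsp2 with 31 reads in 30 distinct tags and of Ctdsp1 with 11 reads in 11 distinct tags, and reversed tags matched 0 times. Transcripts of Ctdsp2 and Ctdsp1 were thus seen as scattered fragments of 1 or 2 reads in DMSO. Ctdspl, with 1 read there, was under the limit of 3 reads, and in SC1 it was not above the reversed tags. Small RNA libraries do not measure the level of these mRNAs.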

How the data were processed

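Total RNA of 1 SC1 and 1 DMSO culture was sequenced as small RNA. The authors deposited, for each library, a list of distinct tags, each with its raw read count and length (the length column equals the length of the sequence). A last DMSO line with only the total was left out. The submitters' processing notes name the build mm9, and of the adapter, trimming, length filter and aligner nothing is given in the sources used here. Trimming and length filters decide which ends are seen, and no depth beyond each list's length class is known.

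Tags of 18 to 26 nt (DMSO) or 15 to 17 nt (SC1) were matched in sense to 1005 RefSeq hairpins (GRCm38.p6) and 217 further GENCODE M21 Mir hairpins, exactly or after removal of 1 to 3 terminal A or T, and the longest templated part won. A tag was given to an arm when it started within 3 nt of the annotated start, and reads of tags with several names were divided equally. Only RefSeq hairpins have named arms, so tags found on the 217 further hairpins alone count in the scale but belong to no arm. The rule was checked on simulated tags of RefSeq hairpins only. Tails that begin with the next hairpin base, which the rule counts as templated, were left out of that check. Intervals are exact (Clopper-Pearson) at 95%, and a count of 0 allows 3 counts. The members, lists and rules were chosen with earlier results of these data known. Named arms were the members, their 3 neighbours on each side in level, the 5 nearest to miR-26a-5p in profile and the let-7, miR-30, miR-103 and miR-107 arms; the arms nearest to miR-26b-5p, Mirlet7g, miR-127-3p, miR-298-5p and miR-409-3p (for its AT tails) were chosen after their values were seen. The RefSeq table has 11 let-7 and 4 miR-30 hairpins, and the let-7 and miR-30 lists hold only their 5p arms with at least 1000 reads. The planned tests were descriptions only. Alternatives were other minimum reads, tail rules, lengths, scalings, distinct tags and the main tag alone. Python 3.11.15, numpy 2.4.6, scipy 1.17.1, matplotlib 3.10.9 and Biopython 1.88 were used.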

Additional observations from a re-analysis of the deposited data

How the results depend on the processing

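No paired analysis was possible because a single library stands for each condition. Of 60 recomputed values, 33 stayed within the counting interval of the reported value, 26 left it and 1 changed direction. The order of the members changed only with the main tag of each arm alone, where the log2 ratio of miR-26a-5p to miR-26b-5p was -0.053 (reported 0.29) and the levels were 2779 and 2883 RPM. It was 0.075 with exact tags only (miR-26a-5p at 1899 RPM), 0.13 with removal of 1 A or T only (1954 RPM, tail share of miR-26a-5p 10.1%) and 0.60 by distinct tags (levels 3023 and 1991 in each 1000000 tags, tail shares 70.7% and 51.9%). Distinct tags weigh rare tags like frequent ones. Levels of miR-26a-5p and miR-26b-5p were 274 and 224 RPM scaled to all reads of the list and 2204 and 1859 RPM with tags of 20 to 24 nt. With the most frequent templated end only, the tail share of miR-26a-5p was 22.3%. Settings chosen after seeing the data gave 2377 and 1942 RPM with RefSeq hairpins as the scale. Counting A or T past the annotated end as added put miR-26b-5p at 90.1% tailed, by construction, since its main tag has a templated T there. Scaling to all reads or to RefSeq hairpins divides the same reads by another total, so those levels change by construction. Rules that allow no tail or only 1 added base remove tailed reads by definition. The cause of the remaining changes was not tested. Short SC1 reads were 0 with 17 nt tags only or with tags of at least 10 reads. In every setting but the one that counts A or T past the annotated end as added, miR-26a-5p had the higher tail share of the members. The absence of DMSO reads under 18 nt and SC1 reads over 17 nt limits all statements on SC1.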
